A study of Mus musculus with 6 samples.

Results

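The genes described here are 9 transcription factors that set or maintain macrophage identity, Spi1 (which encodes PU.1), Cebpa, Cebpb, Maf, Klf2, Klf4, Runx1, Nr4a1 and Id2. They were chosen by name, each on 1 row of a table of 34745 genes, and their levels come from its read counts. The data are messenger RNA profiles of cardiac macrophages of C57BL/6 mice aged 8 weeks. Lgmn KO mice, which lack the lysosomal protease legumain, gave 3 libraries (replicates 1, 2 and 4), and WT mice gave 3 (replicates 1, 2 and 3). The design places every sample after myocardial infarction, while the protocols name ligation of the left anterior descending artery or a sham operation without saying which each mouse had or on which day hearts were taken. How the Lgmn allele was made, and whether it was lost in all cells or in macrophages alone, is not stated in the labels. Hearts were digested with enzymes and live cells were stained for flow cytometry with antibodies to CD45, to CD64 and to CD11b. Nothing in the labels ties each library to a mouse of its own, so p-values measure only how libraries vary, and that may be technical variation.

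Macrophage identity is written by a small set of factors that act in layers. PU.1, the C/EBP proteins and RUNX1 open myeloid enhancers during differentiation. MAF holds macrophages in a mature state and restrains their division. KLF2, KLF4, NR4A1 and ID2 tune this programme: the KLF factors and NR4A1 restrain inflammatory genes, NR4A1 is needed for the patrolling, Ly6C-low monocytes of the mouse, and ID2 blocks E proteins by binding them without touching DNA.

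Libraries held 19546253 to 24086976 counts. Lgmn was at 78.7 to 88.5 CPM (reads of a gene relative to the TMM-adjusted total of its library) in the Lgmn KO libraries and at 2205 to 2692 CPM in the WT libraries, so the target gene goes with the labels. The pan-macrophage genes Adgre1, Fcgr1, Csf1r, Mertk, Cd68, Itgam and Ptprc, which include the genes for the 3 stained proteins, were detected in every library. Of 8 markers of resident cardiac macrophages, F13a1, Gas6 and Folr2 were detected in every library at 16.4 CPM or more, and Cx3cr1 and Cbr2 at lower levels. Lyve1 had 0 counts in all libraries, Cd163 reached at most 0.370 CPM and Timd4 at most 0.648 CPM, where 3 counts in a library correspond to 0.125 to 0.153 CPM. In whole-population RNA, fewer cells that use a gene and less of its RNA per cell cannot be told apart.

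Of the 9 factors Maf had the largest difference, with a mean of 71.1 CPM in Lgmn KO macrophages, against 127 CPM in WT macrophages. The log2 fold change between the genotypes (log2FC, Lgmn KO over WT) was negative for 8 of the 9, where 50.4% of all genes were negative, with a median of -0.19, where the median of all 12546 genes tested was -0.0021. None of the 9 passed edgeR's quasi-likelihood test at an adjusted p of 0.05 (0 of 9, where 0.789% of all genes passed, 0.478% lower and 0.311% higher in Lgmn KO). Maf, Runx1 and Nr4a1 had an unadjusted p under 0.05, all lower in Lgmn KO, where 17.5% of all genes had such a p in either direction and 10.6% in the lower one. The same 3 were the members whose groups did not overlap, where 23.7% of all genes had no overlap and 13% were lower in Lgmn KO with none. Maf passed in 4 alternative fits and in the authors' own test, and no other member passed in any of them.

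**Figure D1:**
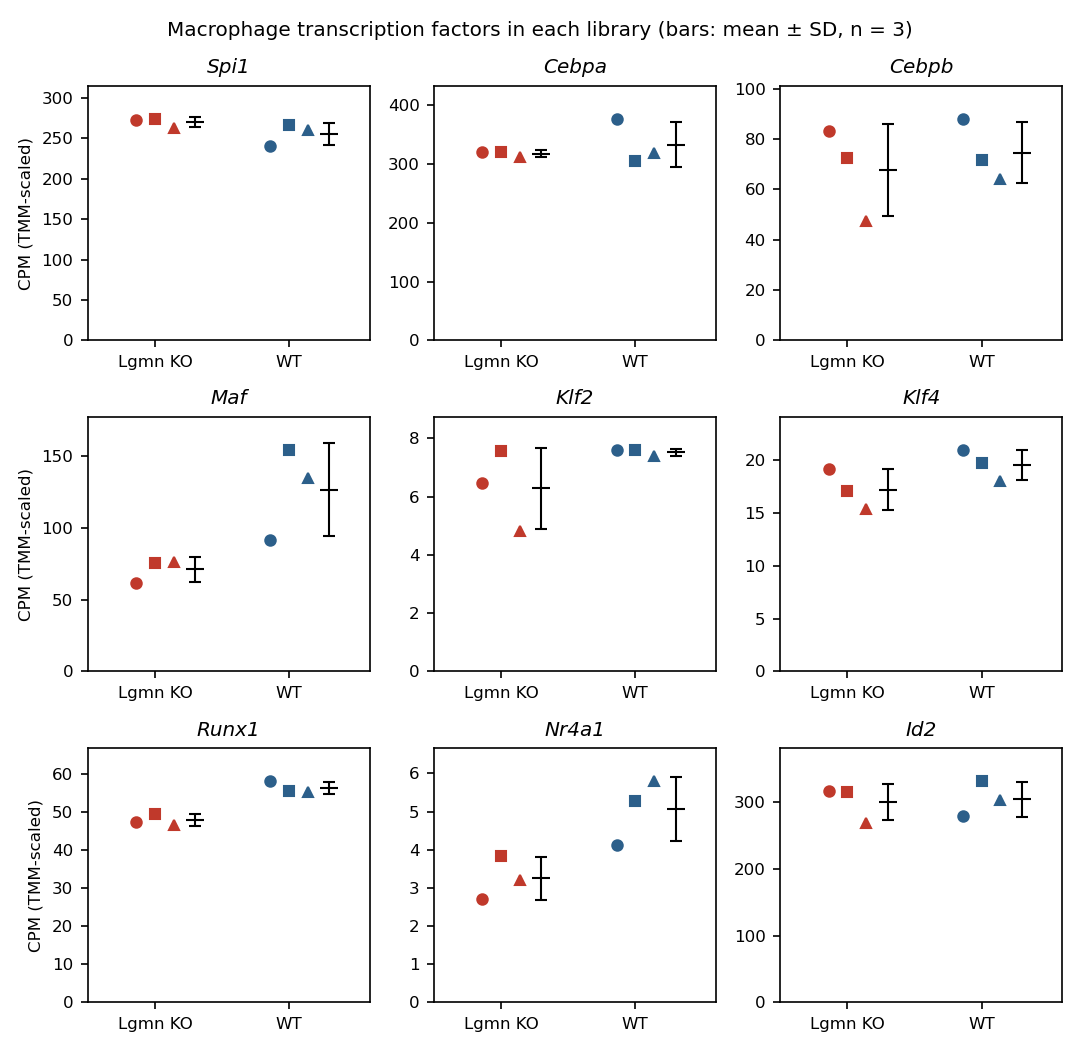
TMM-scaled CPM of each transcription factor in the 3 Lgmn KO libraries (red) and the 3 WT libraries (blue), circles for replicate 1, squares for replicate 2 and triangles for Lgmn KO replicate 4 and WT replicate 3, with the mean and SD of each group in black. The groups are separate for Maf, Runx1 and Nr4a1 and overlap for the other 6.

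Maf, a bZIP factor of the large MAF family, had 61.3, 75.4 and 76.6 CPM in the Lgmn KO libraries, against 91.5, 154 and 135 CPM in the WT libraries. Every Lgmn KO library lay below every WT library, and WT replicate 1 lay closest to the Lgmn KO group. The means were 71.1 ± 8.48 CPM in Lgmn KO, against 127 ± 32.2 CPM in WT libraries (mean ± SD, n = 3 each), a log2FC of -0.84 with a standard error of 0.19 and a 95% interval from -1.28 to -0.40. The edgeR quasi-likelihood test gave an adjusted p of 0.0862, over the threshold of 0.05. DESeq2 called Maf (adjusted p = 0.000862, where it called 5.67% of genes, 3.64% as lower), and so did limma with sample weights (adjusted p = 0.0383, 2.71% of genes called) and edgeR without a filter on low counts (adjusted p = 0.0418, 1.72% called). In the authors' deposited table the log2FC of mean FPKM was -0.85 with a q-value of 0.000491, where 3.81% of the genes with a q-value were under 0.05, 2.8% as lower in Lgmn KO. Leaving out WT replicate 1 brought the log2FC to -1.02 and edgeR's adjusted p to 0.00898, with 4.99% of genes called in that fit. In the 5 other fits without 1 library the value stayed between -0.89 and -0.67, and the adjusted p between 0.204 and 0.227, in fits that called few genes at all: 0.202% without Lgmn KO replicate 1, 0.0468% without Lgmn KO replicate 2, 0.211% without Lgmn KO replicate 4, 0.275% without WT replicate 2 and 0.11% without WT replicate 3.

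A ratio of genes within 1 library needs no scaling between libraries. The FPKM of Maf divided by that of Spi1 in the same library was 0.0776, 0.0951 and 0.1004 in Lgmn KO and 0.131, 0.200 and 0.179 in WT. This ratio was lower in every Lgmn KO library than in any WT library, with an exact two-sided permutation p of 0.1, the smallest that 3 against 3 allows. It was one of 4 ratios formed after the values had been seen (permutation p after Benjamini-Hochberg adjustment = 0.133). Maf, Runx1 and Nr4a1, the members already seen not to overlap, were each divided by Spi1, the member with a positive log2FC. Their ratios are therefore no separate support.

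The small MAF genes, whose proteins lack an activation domain, had log2FC values of -0.04 for Maff, 0.0018 for Mafg and -0.05 for Mafk. Mafa, a MAF gene of pancreatic beta cells, had 1 to 13 counts per library and was not tested.

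Genes linked to MAF in macrophages were read beside Maf itself. Of 10 such genes 7 were tested, and all 7 had a negative log2FC, with a median of -1.50. By the test over all genes C1qa fell and the other 6 did not pass, while 6 of the 7 were under 0.05 before adjustment, all lower, and DESeq2 called 5 (C1qa, C1qb, C1qc, Axl and Mrc1). C1qa, a subunit of the complement protein C1q, had 25.4, 34.7 and 36.1 CPM in Lgmn KO, against 81.4, 259 and 157 CPM in WT (log2FC -2.37, adjusted p = 0.0486, edgeR quasi-likelihood test). WT replicate 1 was the WT library closest to Lgmn KO, as it was for Maf. The C1qa call was lost without any 1 Lgmn KO library, without WT replicate 2 and without WT replicate 3. C1qb and C1qc, which encode the other C1q subunits, had log2FC values of -2.03 and -2.10 (adjusted p = 0.0519 and 0.0575, edgeR quasi-likelihood test), and neither overlapped between groups. Axl, a receptor for bridged apoptotic cells, had a log2FC of -1.50 (adjusted p = 0.0555). F13a1, a transglutaminase gene of macrophages, had one of -0.07, with 127 ± 13.3 CPM in Lgmn KO, against 134 ± 30.4 CPM in WT libraries (mean ± SD, n = 3 each). Il10, Cd163 and Lyve1 were too low to test.

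**Figure D2:**
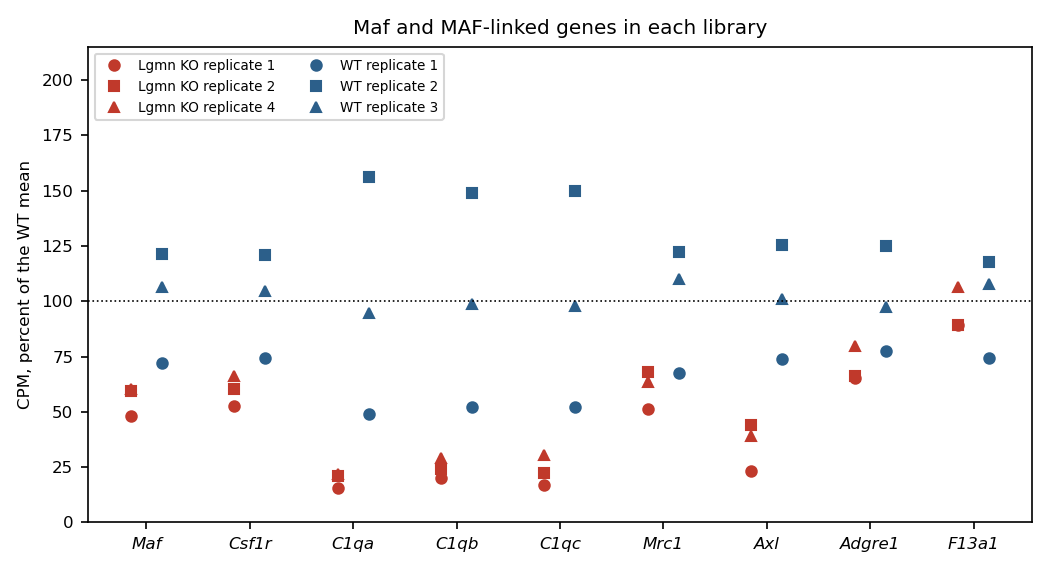
Levels of Maf, Csf1r and the 7 tested genes linked to MAF, each as a percentage of the mean CPM of the 3 WT libraries (dotted line at 100). Lgmn KO libraries are red and stand left of the WT libraries in blue. Maf lay at 48.4% to 60.4% of the WT mean in Lgmn KO and at 72.1% to 122% in WT, and WT replicate 1 was the lowest WT library for every gene shown.

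Across the 6 libraries the profile of Maf was most like that of Csf1r, the receptor for the macrophage growth factor CSF1. Among 8291 other genes with a mean of at least 10 CPM, Pearson's r of log2 CPM with Maf was 0.996 for Csf1r, 0.996 for Slamf8, a surface receptor of myeloid cells, and 0.993 for Marcks, a membrane-bound actin regulator. These values are a description over 6 libraries that also share the genotype difference and the order of the WT libraries. Csf1r was at 486, 555 and 610 CPM in Lgmn KO, against 686, 1116 and 964 CPM in WT, with a log2FC of -0.74 (adjusted p = 0.0916, edgeR quasi-likelihood test).

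Nr4a1, an orphan nuclear receptor gene that cells switch on within minutes of a stimulus, was the scarcest of the 9 factors. It had 55, 75 and 68 counts in Lgmn KO, which is 2.71, 3.83 and 3.21 CPM, against 85, 114 and 139 counts in WT, which is 4.14, 5.28 and 5.80 CPM. The Lgmn KO libraries all lay below the WT libraries, with a gap between Lgmn KO replicate 2 and WT replicate 1 that was small beside counting error: the exact 95% Poisson intervals of those counts, 59.0 to 94.0 and 67.9 to 105, overlap and cover counting error only. The means were 3.25 ± 0.561 CPM in Lgmn KO, against 5.07 ± 0.849 CPM in WT libraries (mean ± SD, n = 3 each), and the log2FC was -0.64 with a standard error of 0.21 and a 95% interval from -1.13 to -0.15. It did not pass (adjusted p = 0.18, edgeR quasi-likelihood test), and its adjusted p lay between 0.0986 and 0.54 over 13 alternatives. In the authors' deposited table its q-value was 0.265. The FPKM ratio of Nr4a1 to Spi1, formed after the values had been seen, was 0.0161 ± 0.00272 in Lgmn KO and 0.0264 ± 0.00338 in WT (SD, n = 3 each), without overlap (exact two-sided permutation p = 0.1, Benjamini-Hochberg p = 0.133 over the 4 ratios).

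A promoter window of Nr4a1 is shown because it repeats 1 short element. The GENCODE M21 annotation begins the gene further upstream, at 101254269, so other starts may lie outside this window. The window runs from 250 bases before the RefSeq start site to 50 bases from it on, on the plus strand at chr15:101266596-101266895 (GRCm38.p6), and capitals mark matches of TGCGTCA, a relative of the cAMP response and AP-1 elements.
Nr4a1: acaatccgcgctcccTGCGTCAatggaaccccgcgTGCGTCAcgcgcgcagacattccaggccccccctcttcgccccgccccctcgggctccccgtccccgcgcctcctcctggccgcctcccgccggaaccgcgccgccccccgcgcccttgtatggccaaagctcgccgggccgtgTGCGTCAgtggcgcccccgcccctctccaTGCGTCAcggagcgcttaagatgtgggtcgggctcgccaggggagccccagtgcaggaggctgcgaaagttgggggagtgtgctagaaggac
TGCGTCA, read on both strands, occurs 4 times here, with first bases at -235, -215, -71 and -42 from the start site, all on the strand of the gene. Of 32851 promoter windows of the same length 2.12% hold at least 1 match, 13 windows hold at least 2, and 1 holds at least 4, which is the window of Nr4a1. These letters were chosen after the sequence had been read. The windows of Nr4a2 and Nr4a3 hold 0 matches. A match of letters is a description and does not show that a factor binds there.

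The 2 relatives of Nr4a1 were lower in Lgmn KO as well, each at a low level. Nr4a2 had 1.18, 1.38 and 1.51 CPM in Lgmn KO, against 1.996, 2.96 and 1.88 CPM in WT, a log2FC of -0.74 (adjusted p = 0.234). Nr4a3 had 0.543, 0.511 and 0.424 CPM in Lgmn KO, against 1.17, 1.85 and 1.17 CPM in WT, a log2FC of -1.49 (adjusted p = 0.0927, edgeR quasi-likelihood test). In counts, Nr4a2 had 24, 27 and 32 in Lgmn KO, against 41, 64 and 45 in WT. Nr4a3 had 11, 10 and 9 counts in Lgmn KO, against 24, 40 and 28 in WT. The groups did not overlap for any of the 3 NR4A genes, and none of them passed the test. Of all genes 23.7% had no overlap, and 13% were lower in Lgmn KO with none. Since NR4A genes also respond to tissue digestion, 19 immediate early and heat shock genes were read beside them: their summed level was 1572 to 1669 CPM in Lgmn KO, against 1526 to 1616 CPM in WT, with overlap. Of the 18 tested, 12 had a negative log2FC, the median was -0.03 and 0 passed (7 were under 0.05 before adjustment, 6 of them lower in Lgmn KO like the NR4A genes, and DESeq2 called 5). The 6 were Nfkbia (log2FC -0.72, adjusted p = 0.0634), Junb (-0.43), Socs3 (-1.41), Ier3 (-0.75), Ier2 (-0.35) and Egr1 (-0.60). Atf3, the most abundant of the list, was higher with a log2FC of 0.35, and the list without it summed to 1015 to 1133 CPM in Lgmn KO, against 1019 to 1225 CPM in WT, with overlap. The part of digestion in the NR4A values was not tested. Among 10 genes of Ly6C-low monocytes, which need NR4A1, 8 were tested with a median of -0.07 (2 were under 0.05 before adjustment, both lower, and DESeq2 called 2). Itgal, an integrin subunit that many leukocytes carry, fell (log2FC -1.33, adjusted p = 0.0224, edgeR quasi-likelihood test). The Itgal call was lost without any 1 Lgmn KO library and without WT replicate 3. Cx3cr1, the fractalkine receptor and a defining marker of these cells, had 1.09, 0.920 and 1.74 CPM in Lgmn KO, against 3.797, 3.52 and 6.05 CPM in WT, without overlap (log2FC -1.83, adjusted p = 0.0575, edgeR quasi-likelihood test; DESeq2 adjusted p = 0.000327). Cd36, the most abundant of the list, had a log2FC of 0.09, and Ace and Treml4 had log2FC values of 0.08 and -0.11.

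Runx1, a founder of the definitive blood lineage that also acts in myeloid cells, showed a small difference with little spread. It had 47.5, 49.6 and 46.7 CPM in Lgmn KO, against 58.1, 55.4 and 55.3 CPM in WT. The groups did not overlap and each was tight. The means were 47.9 ± 1.48 CPM in Lgmn KO, against 56.3 ± 1.61 CPM in WT libraries (mean ± SD, n = 3 each), a log2FC of -0.23 with a standard error of 0.07 and a 95% interval from -0.39 to -0.07. It did not pass (adjusted p = 0.146, edgeR quasi-likelihood test), and over 13 alternatives its log2FC stayed between -0.25 and -0.21 and its adjusted p between 0.108 and 0.571. The FPKM ratio of Runx1 to Spi1, formed after the values had been seen, was 0.0322 ± 0.000638 in Lgmn KO and 0.0400 ± 0.00330 in WT (SD, n = 3 each), without overlap (exact two-sided permutation p = 0.1, Benjamini-Hochberg p = 0.133 over the 4 ratios).

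Runx1 is transcribed from a distal and a proximal promoter, and the table gives 1 count for the whole gene, so the counts do not say which promoter the difference comes from. Both windows are shown to set the 2 starts side by side, on the minus strand of chromosome 16, the distal one at chr16:92826025-92826324 and the proximal one at chr16:92697280-92697579 (RefSeq, GRCm38.p6). Capitals mark TGTGGT, the RUNX site, on either strand.
Runx1 distal: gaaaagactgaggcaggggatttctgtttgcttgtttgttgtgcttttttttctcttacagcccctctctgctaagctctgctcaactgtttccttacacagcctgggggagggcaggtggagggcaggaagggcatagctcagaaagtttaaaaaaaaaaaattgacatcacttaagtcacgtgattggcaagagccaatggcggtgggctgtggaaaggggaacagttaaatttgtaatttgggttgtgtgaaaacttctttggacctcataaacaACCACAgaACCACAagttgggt
Runx1 proximal: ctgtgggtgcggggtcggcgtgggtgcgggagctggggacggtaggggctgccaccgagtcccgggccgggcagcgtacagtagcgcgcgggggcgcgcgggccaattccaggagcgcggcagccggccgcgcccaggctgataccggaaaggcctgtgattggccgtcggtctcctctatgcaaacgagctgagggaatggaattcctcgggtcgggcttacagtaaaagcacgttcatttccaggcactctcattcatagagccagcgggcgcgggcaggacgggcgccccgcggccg
The distal window holds 2 RUNX sites, both on the opposite strand, with first bases at 29 and 37 from the start site, and the proximal window holds 0. At least 1 such site is in 16.8% of the 32851 windows and at least 2 are in 1.81%. The windows also differ in base composition, with 45% of bases being C or G in the distal one and 69% in the proximal one. A promoter window of Runx3 holds 2 RUNX sites as well, and these letters too were chosen after the windows had been read.

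Runx3, which is known best in cytotoxic T cells and NK cells, had 5.53, 5.72 and 5.56 CPM in Lgmn KO, against 10.95, 8.70 and 7.42 CPM in WT, without overlap (log2FC -0.69, adjusted p = 0.106). Runx2, the regulator of bone formation, had a log2FC of 0.22 (adjusted p = 0.643), and Cbfb, the partner that all RUNX proteins need to bind DNA well, one of -0.05 (adjusted p = 0.781, edgeR quasi-likelihood test). Markers of T and NK cells differed beside Runx3. All 14 of them summed to 1136 to 1363 CPM in Lgmn KO, against 822 to 1065 CPM in WT, but nearly all of that was Il7r, and without it the other 13 summed to 1.58 to 2.04 CPM in Lgmn KO, against 6.33 to 16.3 CPM in WT. Of them Ncr1 had 0 counts in all libraries, and leaving out Il7r was chosen after the values had been seen. Their part in the results was not tested.

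Spi1, the gene of the ETS factor PU.1 on which the whole myeloid lineage depends, was the 1 factor with a positive difference. It had 273, 274 and 263 CPM in Lgmn KO, against 241, 266 and 260 CPM in WT. The groups overlapped, with the means at 270 ± 5.91 CPM in Lgmn KO, against 256 ± 13.4 CPM in WT libraries (mean ± SD, n = 3 each). The log2FC was 0.08 with a standard error of 0.07 and a 95% interval from -0.08 to 0.23 (adjusted p = 0.605, edgeR quasi-likelihood test). Its relatives Spib, a factor of B cells and plasmacytoid dendritic cells, and Spic, a factor of iron-recycling macrophages, were at a mean FPKM of 0.163 and 0.212 over the 6 libraries, against 79.4 for Spi1.

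Textbook targets of PU.1 differed in both directions. Of 16 tested, 13 had a negative log2FC and the median was -0.30 (9 were under 0.05 before adjustment, 8 of them lower, and DESeq2 called 6). Ctsk, which encodes cathepsin K, rose and Cybb, the catalytic subunit of the phagocyte oxidase, fell (log2FC values 0.76 and -0.86, adjusted p = 0.0126 and 0.0486, edgeR quasi-likelihood test). Lyz2, the lysozyme gene and the most abundant of them, had a log2FC of -0.08, and Itgb2, the shared beta chain of leukocyte integrins, one of -0.11. Ctsk lost its call without Lgmn KO replicate 2 and without WT replicate 3, and Cybb without each single library other than WT replicate 1.

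Cebpa, which drives myeloid progenitors towards granulocytes and monocytes, was at 321, 321 and 312 CPM in Lgmn KO, against 376, 305 and 318 CPM in WT. The Lgmn KO libraries lay inside the WT range, and WT replicate 1 was the highest of all. The log2FC was -0.07 with a standard error of 0.09 and a 95% interval from -0.28 to 0.14 (adjusted p = 0.757), and without WT replicate 1 it was 0.029. Cebpb, which takes part in inflammatory and alternative activation, had 83.1, 72.4 and 47.3 CPM in Lgmn KO, against 87.9, 71.7 and 64.0 CPM in WT. Lgmn KO replicate 4 was the lowest library, and the groups overlapped. The log2FC of Cebpb was -0.14 with a 95% interval from -0.63 to 0.34 (adjusted p = 0.784, edgeR quasi-likelihood test), and without Lgmn KO replicate 4 it was 0.057. Cebpb has a single exon, 20.7% of whose bases are shared with an exon of Tmem189 on the opposite strand. Tmem189 had 4033 to 5815 counts per library, against 1004 to 1805 for Cebpb, and as no source used here states whether strand was counted, reads of the 2 genes cannot be told apart in the shared stretch.

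The ratio of Cebpa to Cebpb in FPKM was 1.56 ± 0.451 in Lgmn KO and 1.42 ± 0.128 in WT (SD, n = 3 each; exact two-sided permutation p = 0.8, Benjamini-Hochberg p = 0.8 over the 4 ratios). Of the other C/EBP genes Cebpd had a log2FC of -0.28 (adjusted p = 0.48) and Cebpg, which lacks an activation domain, one of 0.0057. Cebpe, the factor of late granulocytes, had 5 to 13 counts per library and was not tested. Among 16 textbook targets of C/EBP alpha and beta 12 were tested, with 8 negative and a median of -0.58, which is the same with Nos2, at 0 counts in all Lgmn KO libraries, put at its bound of at least 4.65 lower on the log2 scale. Before adjustment 5 were under 0.05, all lower, and DESeq2 called 5. Il1b, the interleukin-1 beta gene, was the 1 that passed, and it fell (log2FC -2.84, adjusted p = 0.0277, edgeR quasi-likelihood test). The Il1b call was lost without any 1 library but WT replicate 1. Its level was low, with 0.444, 0.562 and 0.707 CPM in Lgmn KO, against 3.36, 6.02 and 3.045 CPM in WT. Lyz2, Chil3 and Saa3, the 3 most abundant, had log2FC values of -0.08, 0.07 and 0.57.

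Klf2, a zinc-finger factor that keeps endothelium and leukocytes quiescent, had 6.46, 7.56 and 4.81 CPM in Lgmn KO, against 7.59, 7.59 and 7.38 CPM in WT. The WT libraries were almost alike and the Lgmn KO libraries were spread below and up to them. The log2FC was -0.26 with a standard error of 0.18 and a 95% interval from -0.69 to 0.17 (adjusted p = 0.52). Without Lgmn KO replicate 4 it was -0.10, and that library had 102 Klf2 counts with an exact 95% Poisson interval of 83.2 to 124. Klf4, which monocytes need to form and which supports alternative activation, had 19.2, 17.1 and 15.3 CPM in Lgmn KO, against 20.9, 19.7 and 18.1 CPM in WT. The groups overlapped, as Lgmn KO replicate 1 was above WT replicate 3. Its log2FC was -0.19 with a standard error of 0.12 and a 95% interval from -0.46 to 0.09 (adjusted p = 0.481, edgeR quasi-likelihood test).

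Within the KLF family 10 of 14 genes were tested, 7 had a negative log2FC and 0 passed (1 had an unadjusted p under 0.05). That gene was Klf10, which TGF-beta induces, with 43.9 ± 6.27 CPM in Lgmn KO, against 54.1 ± 0.421 CPM in WT libraries (mean ± SD, n = 3 each; log2FC -0.30, adjusted p = 0.209, edgeR quasi-likelihood test). Klf6, the most abundant KLF gene here, had a log2FC of 0.03. Of 10 textbook targets of KLF2 and KLF4 8 were tested, with a median of -0.45 (5 were under 0.05 before adjustment, 4 of them lower, and DESeq2 called 3). Retnla, a marker of alternative activation in the mouse, fell (log2FC -1.70, adjusted p = 0.0444, edgeR quasi-likelihood test), a call lost without any 1 library but WT replicate 1. Its level was low, with 0.938, 1.12 and 0.754 CPM in Lgmn KO, against 2.53, 3.29 and 3.34 CPM in WT. Arg1 was lower without overlap too (log2FC -2.96), while Cdkn1a was higher without overlap (0.25). Thbd and S1pr1, which KLF2 activates in endothelium and T cells, had log2FC values of -0.18 and -0.02. Since KLF2 is also a factor of endothelial cells, 8 endothelial markers were read beside it: they summed to 24.1 to 42.0 CPM in Lgmn KO, against 36.5 to 42.2 CPM in WT, mostly from Kdr. Without Kdr, left out after the values had been seen, the sums were 2.12 to 2.62 CPM in Lgmn KO, against 8.84 to 12.2 CPM in WT, and Tek and Emcn were at 0 counts. Flt1, a receptor for vascular endothelial growth factor, made up most of these WT sums. It had 1.43, 0.920 and 1.23 CPM in Lgmn KO, against 11.15, 7.41 and 6.38 CPM in WT. Flt1 fell (log2FC -2.79, adjusted p = 0.015, edgeR quasi-likelihood test), a call lost without Lgmn KO replicate 2 and without Lgmn KO replicate 4. Pecam1 was lower in Lgmn KO too (log2FC -2.52), while Tie1 was higher, at 0.283 to 0.409 CPM, against 0 to 0.125 CPM in WT. The part of these genes in the results was not tested.

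Id2, the inhibitor of E proteins that innate lymphoid cells and dendritic cells also need, had the highest FPKM of the 9. It had 316, 315 and 269 CPM in Lgmn KO, against 279, 331 and 303 CPM in WT. The groups overlapped throughout, with means of 300.03 ± 26.7 CPM in Lgmn KO, against 304 ± 26.4 CPM in WT libraries (mean ± SD, n = 3 each). The log2FC was -0.02 with a standard error of 0.09 and a 95% interval from -0.24 to 0.20 (adjusted p = 0.94, edgeR quasi-likelihood test). Its relatives differed more in size. Id1, a target of BMP signalling, had 3.26, 6.70 and 5.04 CPM in Lgmn KO, against 7.30, 14.8 and 9.18 CPM in WT, without overlap (log2FC -1.06, adjusted p = 0.166). Id3, which liver macrophages need, had 44.8, 43.9 and 47.7 CPM in Lgmn KO, against 46.6, 80.4 and 70.9 CPM in WT, with WT replicate 1 inside the Lgmn KO range (log2FC -0.54, adjusted p = 0.193, edgeR quasi-likelihood test). The E proteins that ID proteins bind had log2FC values of -0.15 for Tcf3, -0.31 for Tcf4 and 0.22 for Tcf12, with adjusted p between 0.412 and 0.50.

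**Figure D3:**
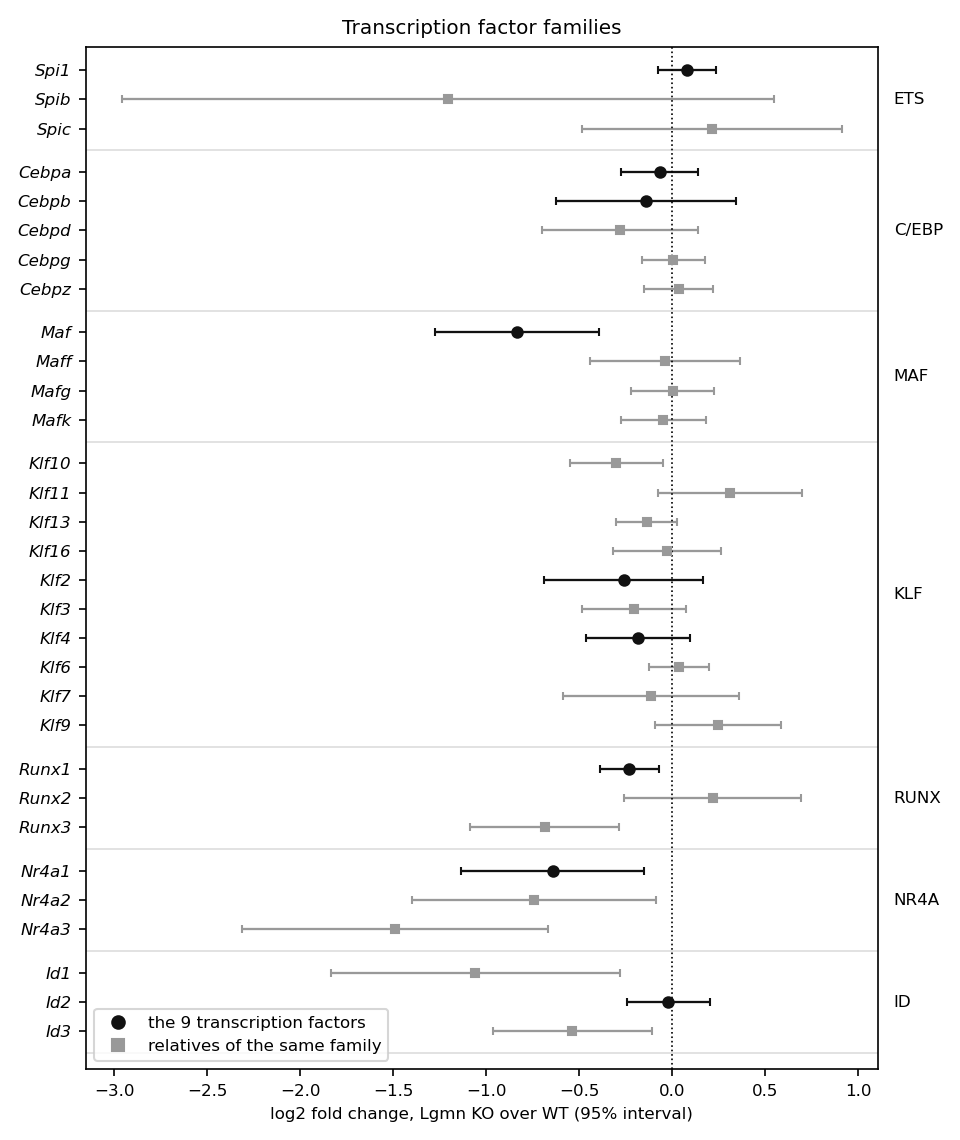
Log2FC, Lgmn KO over WT, with its 95% interval from the edgeR fit for the 9 transcription factors (black circles) and their 22 tested relatives (grey squares), grouped by protein family. The intervals of Maf, Runx1 and Nr4a1 lie below 0, as do those of Klf10, Runx3, Nr4a2, Nr4a3, Id1 and Id3, and none of these genes passed the test over all genes.

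Over all families, 22 of 29 relatives were tested and 0 passed (6 had an unadjusted p under 0.05, all 6 lower in Lgmn KO, and DESeq2 called 2). Their median log2FC was -0.08, with 14 negative. Proteins that bind a member or share its sites were read next. Of 16, 15 were tested, 12 were negative, the median was -0.15 and 0 passed. Before adjustment 5 were under 0.05, 4 of them lower, where 17.5% of all genes were under 0.05 and 10.6% were so and lower. DESeq2 called 5, where it called 5.67% of all genes. The groups of 8 did not overlap, 6 of them lower, where 23.7% of all genes had no overlap and 13% were lower with none. Among these Irf8, a partner of PU.1 in monocytes, was at 193 ± 13.9 CPM in Lgmn KO, against 203 ± 17.7 CPM in WT, and Jun at 290 ± 12.7 CPM in Lgmn KO, against 292 ± 9.20 CPM in WT libraries (mean ± SD, n = 3 each). Atf4, the stress-response bZIP factor, was higher, with 336 ± 10.8 CPM in Lgmn KO, against 264 ± 22.0 CPM in WT libraries (mean ± SD, n = 3 each; log2FC 0.35, adjusted p = 0.0856). Ets1, a relative of PU.1 that lymphocytes use most, had a log2FC of -1.29 (adjusted p = 0.0575, edgeR quasi-likelihood test). Irf4, Junb and Batf were lower too, without overlap, with log2FC values of -2.06, -0.43 and -0.58. They did not pass (adjusted p = 0.0837, 0.0759 and 0.108, edgeR quasi-likelihood test), while DESeq2 called each of them. The level of Irf4 was low, at 1.23 ± 0.679 CPM in Lgmn KO, against 5.13 ± 1.49 CPM in WT libraries (mean ± SD, n = 3 each).

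Of 19 other factors known in monocytes and macrophages 18 were tested, 9 were negative and the median was -0.0093 (5 were under 0.05 before adjustment, 3 of them lower, and DESeq2 called 2). Zbtb46, a factor of classical dendritic cells, fell, with 0.296, 0.307 and 0.283 CPM in Lgmn KO, against 1.36, 1.39 and 1.25 CPM in WT (log2FC -2.15, adjusted p = 0.041, edgeR quasi-likelihood test). That call was lost without any 1 library but WT replicate 1. The 8 dendritic cell markers, of which Zbtb46 is 1, summed to 3.26 to 5.19 CPM in Lgmn KO, against 5.31 to 15.8 CPM in WT, without overlap and with Siglech at 0 counts. Without Ccr7, the most abundant of them and left out after the values had been seen, they summed to 1.88 to 2.96 CPM in Lgmn KO, against 2.77 to 7.41 CPM in WT, with overlap, and their part in the results was not tested. Zeb2, Bhlhe40 and Bhlhe41, the most abundant of these factors, had log2FC values of 0.02, 0.19 and 0.33. Of 16 factors of blood progenitors and other blood lineages 8 were too low to test, among them Gata1, Gata2 and Myb, and 0 of the other 8 passed (1 was under 0.05 before adjustment, and DESeq2 called 0). Myc, a driver of cell growth and division, was at 7.30 ± 0.575 CPM in Lgmn KO, against 9.07 ± 2.78 CPM in WT libraries (mean ± SD, n = 3 each), with an adjusted p of 0.523 (edgeR quasi-likelihood test).

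Summed markers of monocytes were lower in Lgmn KO beside Maf. All 10 summed to 769 to 949 CPM in Lgmn KO, against 958 to 1179 CPM in WT, without overlap. Chil3, the most abundant of them, had a log2FC of 0.07. Without it they summed to 343 to 529 CPM in Lgmn KO, against 568 to 679 CPM in WT, without overlap. Most of that was Fn1 and S100a4, which each overlapped between groups. Of 9 tested 8 were negative and 0 passed (5 were under 0.05 before adjustment, all lower, and DESeq2 called 3). Ccr2 had the lowest log2FC (-2.96), with 6.42, 3.88 and 4.34 CPM in Lgmn KO, against 11.4, 67.2 and 35.6 CPM in WT. Neutrophil markers summed to 272 to 327 CPM in Lgmn KO, against 311 to 454 CPM in WT, with overlap. Without Csf3r, the most abundant of them, they summed to 92.7 to 119 CPM in Lgmn KO, against 162 to 274 CPM in WT, without overlap. Most of that was Mmp8, with 70.8, 86.3 and 97.2 CPM in Lgmn KO, against 141.5, 255 and 178 CPM in WT. Of the 6 neutrophil markers tested 3 had a negative log2FC and 3 a positive one, with a median of 0.06. B cell markers summed to at most 6.05 CPM and cardiomyocyte markers to at most 4.40 CPM in any library. The 8 resident macrophage markers summed to 164 to 197 CPM in Lgmn KO, against 159 to 231 CPM in WT, mostly from F13a1. Without F13a1 they summed to 44.2 to 53.8 CPM in Lgmn KO, against 59.4 to 80.1 CPM in WT, without overlap. Gas6 had the highest mean of the rest, with 24.9 ± 0.159 CPM in Lgmn KO, against 41.8 ± 4.95 CPM in WT libraries (mean ± SD, n = 3 each). Gas6 fell (log2FC -0.75, adjusted p = 0.0297, edgeR quasi-likelihood test), a call lost without any 1 library but WT replicate 1. Folr2 and Cbr2 overlapped between groups (log2FC -0.11 and -0.81), and Cx3cr1, at a lower level than Gas6, did not (-1.83). A sum without Gas6 was not formed, so how far the separation rests on Gas6 was not tested. The 10 pan-macrophage genes summed to 20331 to 23610 CPM in Lgmn KO, against 21857 to 23500 CPM in WT, with overlap, and Lyz2 made up most of that. Without Lyz2 they summed to 5605 to 6520 CPM in Lgmn KO, against 5775 to 7404 CPM in WT, still with overlap. Gene by gene, 8 of the 10 had a negative log2FC, the median was -0.43 and 0 passed edgeR's test, while 7 were under 0.05 before adjustment, all lower in Lgmn KO, and DESeq2 called 3. Those 7 were Csf1r, Cd14 (log2FC -0.99), Mrc1 (-0.72), Fcgr1 (-1.09), Adgre1 (-0.51), Itgam (-0.36) and Mertk (-0.24). The genes left out of these sums were chosen after the values had been seen. Fibroblast markers summed to 45.4 to 117 CPM in Lgmn KO, against 132 to 181 CPM in WT. The part of these cells in the results was not tested.

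In the GRCm38 positions of the table, all 9 are protein-coding genes. Spi1 (ENSMUSG00000002111) lies on the plus strand of chromosome 2 from 91082390 to 91115756, and Cebpb (ENSMUSG00000056501) on the same strand from 167688915 to 167690418. Cebpa (ENSMUSG00000034957) is on the plus strand of chromosome 7 from 35119293 to 35121928. Klf2 (ENSMUSG00000055148) is on the plus strand of chromosome 8 from 72319033 to 72321656, and Klf4 (ENSMUSG00000003032) on the minus strand of chromosome 4 from 55527143 to 55532466. Runx1 (ENSMUSG00000022952) covers the minus strand of chromosome 16 from 92601466 to 92826149. Nr4a1 (ENSMUSG00000023034) is on the plus strand of chromosome 15 from 101266846 to 101274792, and Id2 (ENSMUSG00000020644) on the minus strand of chromosome 12 from 25093801 to 25096092. Maf (ENSMUSG00000055435) is on the minus strand of chromosome 8 from 115682942 to 115707794.

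By level per length the 9 factors fall into an abundant and a lower set. The deposited FPKM of Id2 averaged 235 ± 22.1 in Lgmn KO and 241 ± 18.5 in WT (SD, n = 3 each). Spi1 came next with 81.2 ± 2.25 FPKM in Lgmn KO and 77.6 ± 3.15 FPKM in WT, then Cebpa with 66.1 ± 1.48 FPKM in Lgmn KO and 70.0 ± 8.91 FPKM in WT. Cebpb closed the abundant set with 44.7 ± 12.3 FPKM in Lgmn KO and 49.8 ± 8.80 FPKM in WT. Maf followed at 7.38 ± 0.878 FPKM in Lgmn KO and 13.3 ± 3.23 FPKM in WT. Klf4, Klf2, Runx1 and Nr4a1 came last, with FPKM between 1.09 and 4.84 over all libraries. Spi1 stood above Cebpa, and Klf4 above Klf2, in 5 of 6 libraries, and every other step of the order held in all 6. Over the tested genes, mean FPKM put Id2 at percentile 99.1, Maf at 72.6, Klf4 at 50.8, Klf2 at 48.2, Runx1 at 42.1 and Nr4a1 at 31.4.

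The order between genes leans on the length used, which the differences between groups do not. The length behind the deposited FPKM of Cebpa was 4787 bases, although the locus in the same table spans 2636 bases. With the merged exon length of GENCODE M21 in its place, an alternative chosen after seeing the data, Cebpa came before Spi1 in all 6 libraries (mean 123.5 for Cebpa and 97.4 for Spi1 on the rescaled FPKM) and Runx1 before Klf2, and Id2 lay above Cebpa in only 4 of 6 libraries.

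**Figure D4:**
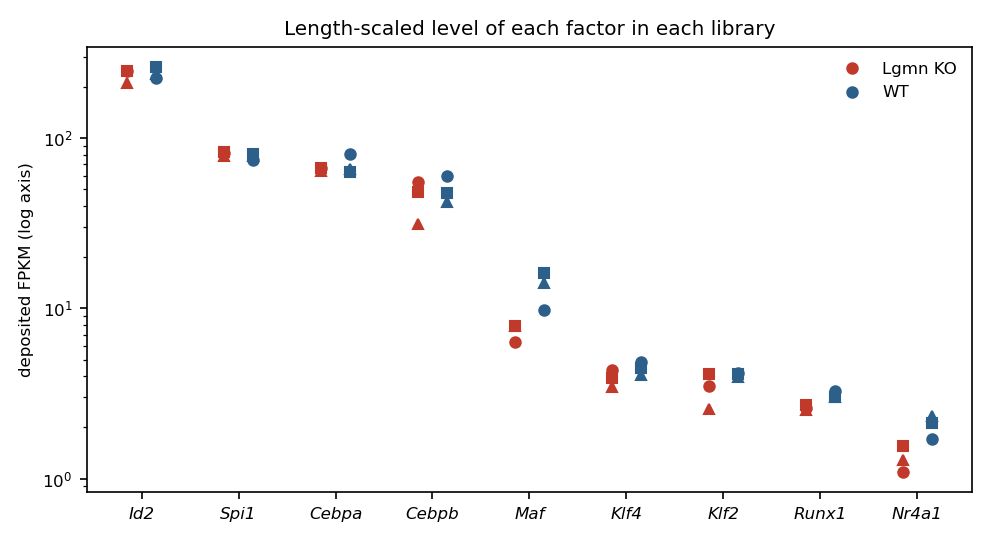
Deposited FPKM of each transcription factor on a log axis, Lgmn KO libraries (red) left of WT libraries (blue), in order of the mean over all libraries. Id2, Spi1, Cebpa and Cebpb lie above 30, Maf between 6.37 and 16.1, and the other 4 below 5.

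**Figure D5:**
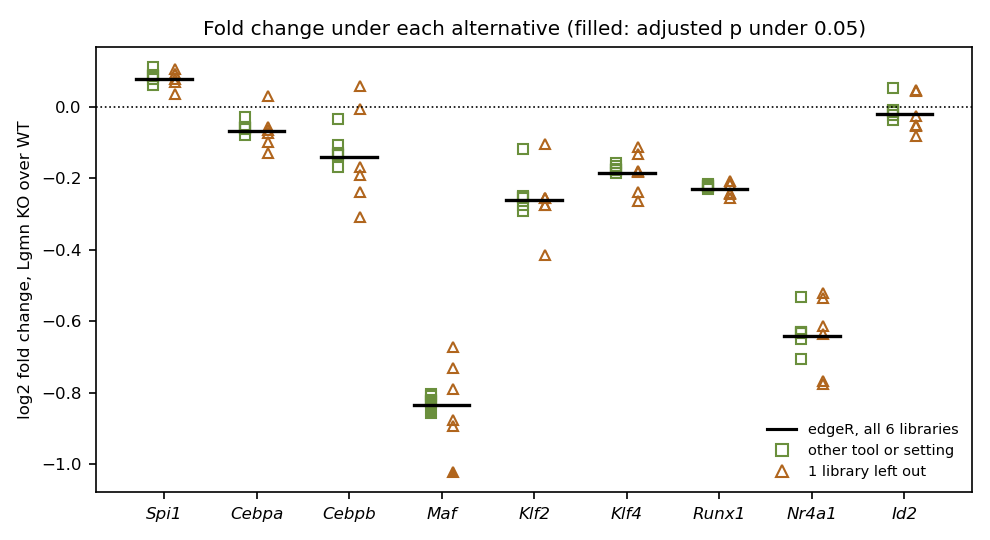
Log2FC, Lgmn KO over WT, for each factor with edgeR on all 6 libraries (black line), with 7 other tools or settings (green squares) and with 1 library left out (orange triangles); filled symbols had an adjusted p under 0.05. Maf had 4 filled symbols and the other factors had none.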

How the data were processed

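Messenger RNA of sorted cardiac macrophages was sequenced in 3 Lgmn KO and 3 WT libraries, grouped by sample title. Per the file headers, the deposited table holds a read count and an FPKM value per gene and sample, the authors' log2 fold change of mean FPKM, and their p-value and q-value (test not given in the sources used here). HISAT2, TopHat and TopHat2 2.0.9 are named, with no role, per the submitters' processing notes, as is the build hg38, but gene positions are mouse GRCm38 ones and 98.6% of gene IDs are in GENCODE M21. The deposited FPKM equals count over total and over 1 whole-number length per gene (within 0.5 bases) in 100% of 9082 genes whose count is 100 or more throughout; for 72.5% of 9067 genes that length exceeded the merged exons of GENCODE M21.

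Counts were tested with edgeR 4.0.16 in R 4.3.3 (filterByExpr, TMM factors, glmQLFit, glmQLFTest, no covariate), with Benjamini-Hochberg adjustment over all 12546 genes tested and calls under 0.05. Standard errors come from the F statistic and intervals are 95%. On simulated data of 12426 genes the procedure called 96% of 100 genes changed 2-fold, 100% of 100 changed 4-fold and 11 unchanged genes. All genes were simulated with 1 common spread between libraries (a biological coefficient of variation of 16.1%). Genes as scarce as Nr4a1 were not among the changed ones. These shares therefore do not carry over to genes that vary more or are that scarce. Alternatives were DESeq2 1.42.0, limma 3.58.1 voom, other scaling factors, no filter, a threshold of 0.1, a replicate block and each library left out. Pairs within a group had a chi-square of 14.0 to 42.7 per degree of freedom, where sampling noise gives about 1, so each was counted as a library of its own; the labels do not say whether any share a mouse. The 21 gene lists hold 230 genes, all found (1 other gene is not reported here); Itgam is on 2 rows, of which the one so named in GENCODE M21 was used. Named genes are the 9 members and, per list, the called genes, the 3 of highest mean and the 2 of smallest p, of which fewer are printed; others serve as relatives, partners or markers. The members and lists were chosen with earlier results of these data known. Promoters are from RefSeq (GRCm38.p6), which had windows for 7 of the 9 members.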

Additional observations from a re-analysis of the deposited data

How the results depend on the processing

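The number of all genes called was 99 with edgeR, 782 with DESeq2, 340 and 46 with limma-voom with and without sample weights, 318 without a filter on low counts, 503 at a threshold of 0.1 and 39 with a replicate block. It ran from 6 to 639 when 1 library was left out, 6 without Lgmn KO replicate 2 and 639 without WT replicate 1. Members called were 0 with edgeR and 1, Maf, with DESeq2, with limma-voom with sample weights, without a filter and at the threshold of 0.1, and 0 to 1 when 1 library was left out (1 without WT replicate 1). The replicate block left members called at 0, with Maf at -0.81 (adjusted p = 0.114, edgeR quasi-likelihood test). Lgmn KO replicate 4 and WT replicate 3 have numbers found in a single group. The fold changes with the block thus came from replicates 1 and 2 alone. Numbers 1 and 2 are in both groups. The deviations of same-numbered libraries correlated by 0.122 and 0.0757, and those of libraries with crossed numbers by -0.168 and -0.0398. The labels do not say what a number marks, so the main fit has no block, and a pairing of the libraries was not settled by these values. The sign of the log2 fold change turned for Cebpa without WT replicate 1 (0.029), for Cebpb without Lgmn KO replicate 4 (0.057), and for Id2 with the block (0.053), without Lgmn KO replicate 4 (0.048) and without WT replicate 2 (0.043). When 1 library was left out these 3 ranged from -0.13 to 0.029, from -0.31 to 0.057 and from -0.080 to 0.048. The cause was not tested. The other 6 members kept their sign in all 13 alternatives. With merged exon lengths Spi1 moved to rank 3, Cebpa to 2, Klf2 to 8 and Runx1 to 7. Depth limits Nr4a1 and Klf2 most, with 55 to 177 counts per library.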
